A study of Mus musculus with 2 samples.

Results

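The replication-dependent histone genes of the mouse were described as the protein-coding genes of the GENCODE annotation whose symbols begin with Hist1h, Hist2h, Hist3h or Hist4h. They were 67 of 21938 protein-coding genes: 6 for H1, 18 for H2A, 18 for H2B, 12 for H3 and 13 for H4. They lie in the cluster Hist1 on chromosome 13 (54 genes), Hist2 on chromosome 3 (10 genes), Hist3 on chromosome 11 (2 genes) and Hist4 on chromosome 6 (1 gene). A gap of over 200 kb without a member divides Hist1 into a first block of 23 genes (mm10, chr13:21715763-22043676) and a second block of 31 genes (chr13:23531050-23934851).

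The material was frontal cortex from female mice aged 25 days of B6CASTF1/J, an F1 hybrid between C57BL/6J and the wild-derived strain CAST/EiJ, and the labels name no treatment. The assay was DNase-seq on nuclei isolated from the tissue: DNase I cuts where nucleosomes leave DNA exposed, and sequencing the cut ends shows where chromatin was open. There was 1 group of 2 libraries, called replicate 1 and replicate 2 after their labels, and no contrast between conditions, so the results are descriptions with no test. The labels name separate biological replicates and biosamples but 1 donor identifier, so the spread between the libraries is one between samples and may be technical.

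Nuclear DNA is wound around an octamer of the core histones H2A, H2B, H3 and H4, and the linker histone H1 binds where the DNA enters and leaves it. Replication-dependent histone genes are clustered and mostly lack introns, their mRNAs end in a stem-loop in place of a poly(A) tail, and they are known for their high activity in S phase, when new DNA must be packaged. Most neurons of the postnatal cortex no longer divide, and replication-independent variants such as H3.3 supply histone outside S phase.

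Promoters of each histone type share short elements in other vertebrates and in mouse, and these were searched on both strands. All H4 promoters shown here come from the RefSeq promoter table (GRCm38.p6, the build of mm10), as the 65 bases before the annotated transcription start site (TSS), 5′ to 3′ along the gene. They are shown because the H4 genes had the strongest peaks. Capitals mark GGTCCG, the core of the H4 element to which the factor HINFP is known to bind. The first 3 and Hist4h4 had strong promoter peaks, Hist1h4k had a middle one and Hist1h4m a weak one.
Hist1h4c (chr13:23698459-23698523, minus strand): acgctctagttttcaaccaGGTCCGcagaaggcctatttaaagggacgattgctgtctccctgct
Hist1h4i (chr13:22041363-22041427, minus strand): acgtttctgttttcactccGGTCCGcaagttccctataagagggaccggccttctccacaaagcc
Hist1h4d (chr13:23581503-23581567, plus strand): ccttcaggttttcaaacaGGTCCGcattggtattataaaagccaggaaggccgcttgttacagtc
Hist4h4 (chr6:136804432-136804496, minus strand): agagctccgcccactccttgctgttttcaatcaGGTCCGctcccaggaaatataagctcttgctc
Hist1h4k (chr13:21750554-21750618, minus strand): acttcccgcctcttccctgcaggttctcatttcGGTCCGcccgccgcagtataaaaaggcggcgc
Hist1h4m (chr13:21811681-21811745, plus strand): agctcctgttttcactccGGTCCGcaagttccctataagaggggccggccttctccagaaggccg

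The full 250 bases before the TSS are shown for the strongest member of a type where the RefSeq table holds it, with bases inside a footprint of both libraries in capitals. A footprint is a short stretch of low cutting within open DNA, as called by the authors.
Hist1h4c (chr13:23698459-23698708, minus strand): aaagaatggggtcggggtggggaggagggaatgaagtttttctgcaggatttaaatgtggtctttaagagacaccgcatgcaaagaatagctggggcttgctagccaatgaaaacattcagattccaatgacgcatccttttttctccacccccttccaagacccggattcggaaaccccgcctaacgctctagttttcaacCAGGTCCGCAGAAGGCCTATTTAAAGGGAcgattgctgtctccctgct
Hist1h1c (chr13:23738557-23738806, plus strand): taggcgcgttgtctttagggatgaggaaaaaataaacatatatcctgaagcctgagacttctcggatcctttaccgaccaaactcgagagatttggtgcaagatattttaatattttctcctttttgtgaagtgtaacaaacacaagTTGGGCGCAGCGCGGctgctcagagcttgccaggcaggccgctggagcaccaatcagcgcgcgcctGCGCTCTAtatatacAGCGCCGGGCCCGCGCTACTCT
Hist2h2aa2 (chr3:96240375-96240624, minus strand): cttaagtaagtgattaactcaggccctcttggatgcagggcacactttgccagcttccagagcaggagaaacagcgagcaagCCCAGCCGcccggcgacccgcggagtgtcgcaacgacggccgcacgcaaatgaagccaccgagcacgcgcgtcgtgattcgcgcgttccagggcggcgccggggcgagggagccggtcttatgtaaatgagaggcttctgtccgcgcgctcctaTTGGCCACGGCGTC
The same stretch of Hist1h1t, a testis-specific H1 gene with no promoter peak here, is shown for contrast and holds no footprint of both libraries.
Hist1h1t (chr13:23695561-23695810, plus strand): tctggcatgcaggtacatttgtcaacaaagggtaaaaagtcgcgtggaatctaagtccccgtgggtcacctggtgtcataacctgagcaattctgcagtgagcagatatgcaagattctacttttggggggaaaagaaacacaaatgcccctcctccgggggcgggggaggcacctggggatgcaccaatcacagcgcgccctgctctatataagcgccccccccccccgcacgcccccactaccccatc

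H2A and H2B genes often stand head to head with a shared promoter. The sequence between the TSS of the pair with the highest shared peak, Hist1h2bf and Hist1h2ad, and of the pair Hist1h2ag and Hist1h2bj is shown on the plus strand, again with footprint bases of both libraries in capitals. The second pair was chosen after its values were seen, because it holds both an E2F site and a CRE.
Hist1h2bf/Hist1h2ad (chr13:23574208-23574380, plus strand): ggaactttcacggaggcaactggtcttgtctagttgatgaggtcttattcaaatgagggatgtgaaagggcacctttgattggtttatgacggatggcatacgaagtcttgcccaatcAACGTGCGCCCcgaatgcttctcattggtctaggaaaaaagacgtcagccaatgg
Hist1h2ag/Hist1h2bj (chr13:22042950-22043197, plus strand): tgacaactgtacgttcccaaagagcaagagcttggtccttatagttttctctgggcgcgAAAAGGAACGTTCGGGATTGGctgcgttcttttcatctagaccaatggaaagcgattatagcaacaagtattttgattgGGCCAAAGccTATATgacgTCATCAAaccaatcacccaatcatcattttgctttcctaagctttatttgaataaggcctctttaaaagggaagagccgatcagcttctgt
The 5 distinct sites of the letters TTTCGCGC, which E2F factors are known to bind, are shown with 11 bases on each side along the strand of the match and with the site in capitals.
Hist1h2an E2F (chr13:21787282-21787311, minus strand): cgtaggctcttTTTCGCGCttggagaatcc
Hist1h2ah E2F (chr13:22035629-22035658, minus strand): cgggcctccttTTTCGCGCcctggcttgac
Hist1h2ag E2F (chr13:22042993-22043022, minus strand): cgaacgttcctTTTCGCGCccagagaaaac
Hist1h2af E2F (chr13:23533816-23533845, plus strand): gatcactccgtTTTCGCGCcagaagttgag
Hist1h2bf E2F (chr13:23574381-23574410, plus strand): cataggtccttTTTCGCGCccagcgaataa

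The authors called 85603 peaks in replicate 1 and 87847 in replicate 2. The authors' signal per peak, normalized to read depth on a scale that is not stated, is called its value here, and the median over all peaks was 0.627 in replicate 1 and 0.679 in replicate 2. Sequencing depth was not given in the sources used here. Markers of neurons had promoter peaks in both libraries at 10 of 10 genes, with a median value of 1.84, against 61.5% of all protein-coding genes with such a peak. In replicates 1 and 2 the values were 1.70 and 1.76 at Rbfox3, 2.35 and 3.60 at Syt1 and 0.667 and 0.537 at Gad2, an inhibitory neuron gene. The counts were 5 of 8 for astrocytes, 5 of 10 for oligodendrocytes and their precursors, 3 of 8 for microglia, 3 of 8 for endothelial and mural cells and 2 of 7 for meningeal and choroid plexus cells. Markers of proliferating cells had a peak in both libraries at 9 of 9 genes, with a median value of 2.46. In whole tissue, fewer cells with an open site and a less open site in each cell cannot be told apart.

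Most histone promoters were open. A peak lay within 1 kb of an annotated TSS in both libraries at 57 of the 67 histone genes (85.1%), against 61.5% of all protein-coding genes. Their promoters were rich in CpG dinucleotides, with a median of 62 in a window of 1 kb centred on the 5′ end, against 41 over all protein-coding genes. Restricted to promoters that had a peak in each of the libraries, the medians were 61 for histone genes and 60 for all. Among the 4342 protein-coding genes with 52 to 73 CpG, the interquartile range of the histone genes, 91.7% had a peak in both libraries. In replicate 1 alone 58 of the histone genes (86.6%) had a peak, against 64.1% of all genes, and in replicate 2 alone 57 (85.1%), against 62.9%. The share of the histone genes therefore lay above the share of all genes. It covers members with 4 to 105 CpG, so it is not like for like with the 91.7%. The histone genes without a peak in both libraries all had CpG counts outside 52 to 73, so those inside that range all had one.

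The strength of these peaks was near that of other promoters. The median value of the 57 genes, each taken at its strongest promoter peak, was 2.15 in replicate 1 and 2.44 in replicate 2. Over all 13489 protein-coding genes with such a peak it was 2.24 in replicate 1 and 2.40 in replicate 2. Averaged over the libraries, the values of the histone genes ran between 0.605 and 5.71, 25 of the 57 lay above the median of all genes (2.34) and 6 lay above their 90th percentile (4.89). Because neighbours share peaks, the 57 genes rested on 45 distinct peaks in replicate 1 and 44 in replicate 2.

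The libraries gave like values, though at Hist1h2be, Hist1h2bb and Hist1h3f the strongest peaks of the libraries did not overlap. Replicate 2 was the higher at 38 of the 57 genes (66.7%), against 68.8% of all genes. The values differed by over 0.5 on the log2 scale at 5 histone genes (8.77%), against 13.7% of all genes. The widest differences, in units of log2(replicate 1 / replicate 2), were -0.79 at Hist1h3i, -0.62 at Hist1h2af and -0.56 at the peak that Hist1h2bf and Hist1h2ad share.

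**Figure D1:**
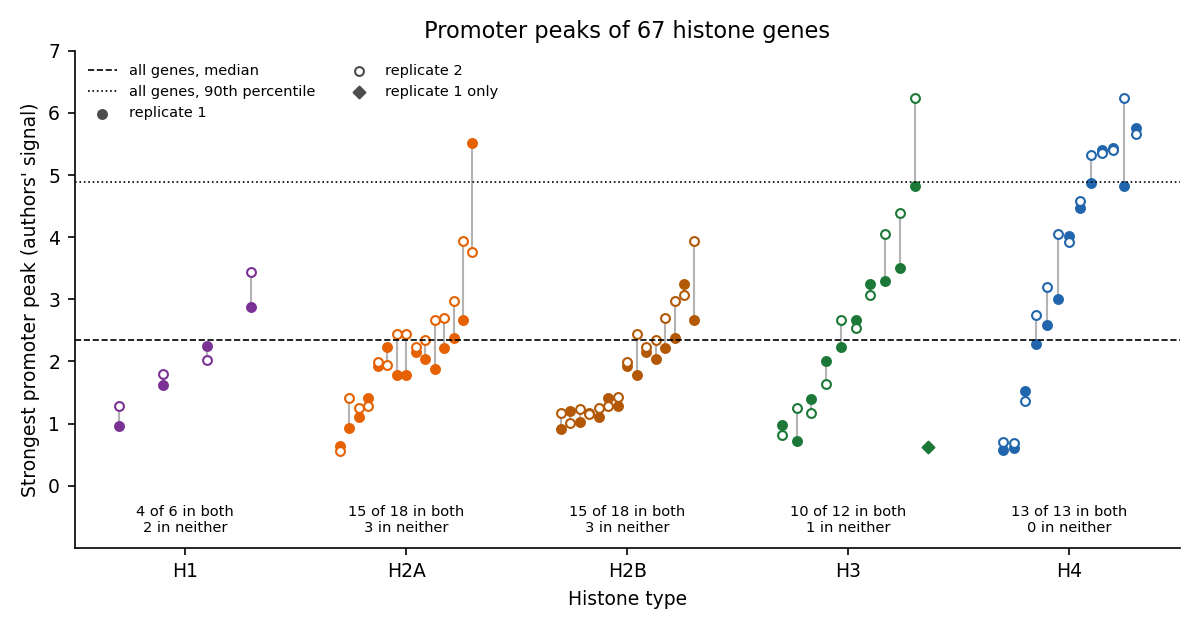
Value of the strongest promoter peak (authors' signal, y axis) of each histone gene by histone type (x axis). Filled circles are replicate 1, open circles are replicate 2, and lines join a gene's values. The dashed and dotted lines are the median (2.34) and 90th percentile (4.89) of all protein-coding genes with a peak in both libraries. H4 has 5 genes whose mean lies above the dotted line, and a peak seen in replicate 1 alone is drawn as a diamond.

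The linker histone genes had peaks in both libraries at 4 of 6 members, with a median value of 1.94 in replicate 1 and 1.91 in replicate 2. Hist1h1c, which encodes the subtype H1.2, had 2.88 in replicate 1 and 3.44 in replicate 2 (mean 3.16 ± 0.40, SD, n = 2). The centre of that peak lay inside the annotated gene, 1022.5 bp downstream of the TSS in replicate 1 and 1012.5 bp in replicate 2. Within 500 bp of its TSS, Hist1h1c had 2.28 in replicate 1 and 3.03 in replicate 2. Hist1h1e (H1.4) had 2.25 and 2.02 in replicates 1 and 2, and Hist1h1a (H1.1) had 1.62 and 1.80, both with a peak centre under 100 bp from the TSS. Hist1h1b (H1.5) was the lowest at 0.955 and 1.29. Its strongest peak was about 1 kb downstream of the TSS, past the 3′ end of the gene. That peak is also counted below among the peaks between genes.

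Hist1h1d and Hist1h1t had no promoter peak in either library. The annotated TSS of Hist1h1d (H1.3) lies 1828 bp from the start of its coding sequence, in a stretch with 4 CpG. At its RefSeq TSS, which is nearer to the coding sequence, Hist1h1d had a peak of 1.59 in replicate 1 and 2.19 in replicate 2. Hist1h1t, whose product is known from spermatocytes, had none at its RefSeq TSS, and no position within 1 kb of the annotated TSS passed a false discovery rate of 0.05 in either library. Other linker histones of testis and oocyte gave little: H1fnt had values of 0.186 and 0.246 in replicates 1 and 2, while Hils1 and H1foo had no peak.

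The H2A genes had peaks in both libraries at 15 of 18 members, with a median value of 1.92 in replicate 1 and 2.35 in replicate 2. Hist2h2aa2 led with 5.51 in replicate 1 and 3.76 in replicate 2 (mean 4.64 ± 1.24, SD, n = 2), and it was the histone gene most in favour of replicate 1. Its near-copy Hist2h2aa1 had 2.24 and 1.94 in replicates 1 and 2. In the 300 bases around the TSS, 86.4% of the 36-base windows of Hist2h2aa2 and 72.8% of those of Hist2h2aa1 occur again in the genome, so reads of the copies could be exchanged. Hist1h2ad had 2.67 and 3.95 in replicates 1 and 2, Hist1h2ag had 2.37 and 2.97, and Hist1h2an had 2.21 and 2.70. Hist1h2ab was lowest, at 0.644 in replicate 1 and 0.565 in replicate 2.

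The H2B genes also had peaks in both libraries at 15 of 18 members, with a median value of 1.78 in replicate 1 and 1.99 in replicate 2. Hist1h2bf had the values of its partner Hist1h2ad, 2.67 in replicate 1 and 3.95 in replicate 2 (mean 3.31 ± 0.90, SD, n = 2). Hist2h2bb had 3.24 and 3.07 in replicates 1 and 2, from a peak it shares with Hist2h3b. No H2A or H2B gene had a mean value above the 90th percentile of all genes. The first exon of Hist1h2be is annotated 35168 bp from its coding sequence. The gene had 1.20 in replicate 1 and 1.02 in replicate 2 there, from peaks that do not overlap. The peak of replicate 2 also lay in the window of Hist1h1e. At its RefSeq TSS Hist1h2be had 1.06 in replicate 1 and 1.36 in replicate 2.

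Most values of H2A and H2B genes came from peaks shared by a divergent pair. There were 12 divergent H2A/H2B pairs with annotated TSS 176 to 306 bp apart. In 9 of them the same peak was the strongest of both genes in both libraries. TSS this close have largely the same window of 1 kb on either side, so the sharing follows in large part from the rule. The shared peaks averaged between 1.18 at Hist1h2ak and Hist1h2bn and 3.31 at Hist1h2bf and Hist1h2ad. The other 3 pairs had no peak: Hist1h2bq with Hist1h2ao, Hist1h2ap with Hist1h2br, and Hist1h2ba with Hist1h2aa. In Hist2, 1 peak of 1.78 in replicate 1 and 2.44 in replicate 2 lay in the windows of Hist2h2ac, Hist2h2be and the nearby Hist2h2ab. Within 500 bp of its own TSS, Hist2h2ab had 1.40 and 1.08.

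The H3 genes had peaks in both libraries at 10 of 12 members, with a median value of 2.45 in replicate 1 and 2.60 in replicate 2. The first by value, Hist1h3a, had 4.83 in replicate 1 and 6.25 in replicate 2, but that peak lay 955.5 bp from its TSS and is the one of its neighbour Hist1h4a. With each peak given to the nearest TSS alone, Hist1h3a had 0.774 and 0.902 in replicates 1 and 2. Hist1h3e had 3.50 and 4.39 in replicates 1 and 2, and Hist1h3b had 3.29 and 4.05, both with a peak centred within 65 bp of the TSS. Hist2h3b reached 3.24 and 3.07 through the peak of Hist2h2bb, and with the nearest TSS alone it had 1.57 and 1.52. Hist1h3d was the lowest by mean, with 0.978 in replicate 1 and 0.811 in replicate 2.

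The H4 genes stood highest. All 13 of them had a peak in both libraries, with a median value of 4.02 in replicate 1 and 4.05 in replicate 2. Averaged over the libraries, 10 of the 13 lay above the median of all genes and 5 above their 90th percentile, while 1 gene of the other types combined, Hist1h3a, lay above it through the peak of Hist1h4a. Hist1h4c (chr13:23697635-23698454) was the highest histone gene with 5.76 in replicate 1 and 5.65 in replicate 2 (mean 5.71 ± 0.08, SD, n = 2), and 5.0% of all genes with a promoter peak had a higher mean value. Hist1h4a had 4.83 and 6.25 in replicates 1 and 2 (mean 5.54 ± 1.00, SD, n = 2). Hist1h4i had 5.44 and 5.40, and Hist1h4d had 5.40 and 5.36, in replicates 1 and 2. Hist2h4 had 4.87 and 5.33, and Hist4h4, the single gene of its cluster, had 4.46 and 4.58. The leading 6 H4 genes thus came from 3 clusters on 3 chromosomes.

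The remaining H4 genes spread widely. Hist1h4h had 4.02 and 3.93 in replicates 1 and 2, Hist1h4k 3.01 and 4.05, Hist1h4f 2.59 and 3.20, Hist1h4b 2.28 and 2.75 and Hist1h4j 1.53 and 1.36. Hist1h4m had 0.605 and 0.679, and Hist1h4n had 0.571 and 0.702, which set them apart at the low end. At both of them 94.3% of the 36-base windows around the TSS occur again in the genome.

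H4 and H3 peaks were narrow. The median width of the strongest peak was 220 bp for H4 genes in each library and 220 and 210 bp for H3 genes in replicates 1 and 2. It was 320 and 260 bp for H2A genes, 320 and 280 bp for H2B genes and 300 and 260 bp for H1 genes. Over all protein-coding genes it was 260 and 240 bp. The authors' false discovery rate of the cut rate, listed up to 0.05, describes the same libraries position by position. At the RefSeq TSS itself a listed position was found at 100% of 12 H4 promoters in each library, at 77.8% and 83.3% of 18 H2A promoters in replicates 1 and 2, at 81.2% of 16 H2B promoters, 80% of 10 H3 promoters and 83.3% of 6 H1 promoters in each library. At the annotated 5′ end of all protein-coding genes it was 50.7% in replicate 1 and 48.6% in replicate 2. At 250 bp before the TSS the share of H2A promoters was 66.7% in each library and that of H2B promoters 68.8% and 62.5% in replicates 1 and 2. H4 promoters stood at 41.7% and H3 promoters at 20% in each library, against 36% and 29.9% of all protein-coding genes in replicates 1 and 2. Openness thus extended farther upstream at H2A and H2B promoters, where the partner gene's TSS often lies. Downstream the order differed. At 250 bp after the TSS, H4 promoters stood at 75% in each library and H1 promoters at 83.3% and 50% in replicates 1 and 2. H2A promoters had 27.8% and 33.3%, H2B promoters 25% and 31.2% and H3 promoters 20% and 10%. All protein-coding genes had 43.9% and 36.8%.

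**Figure D2:**
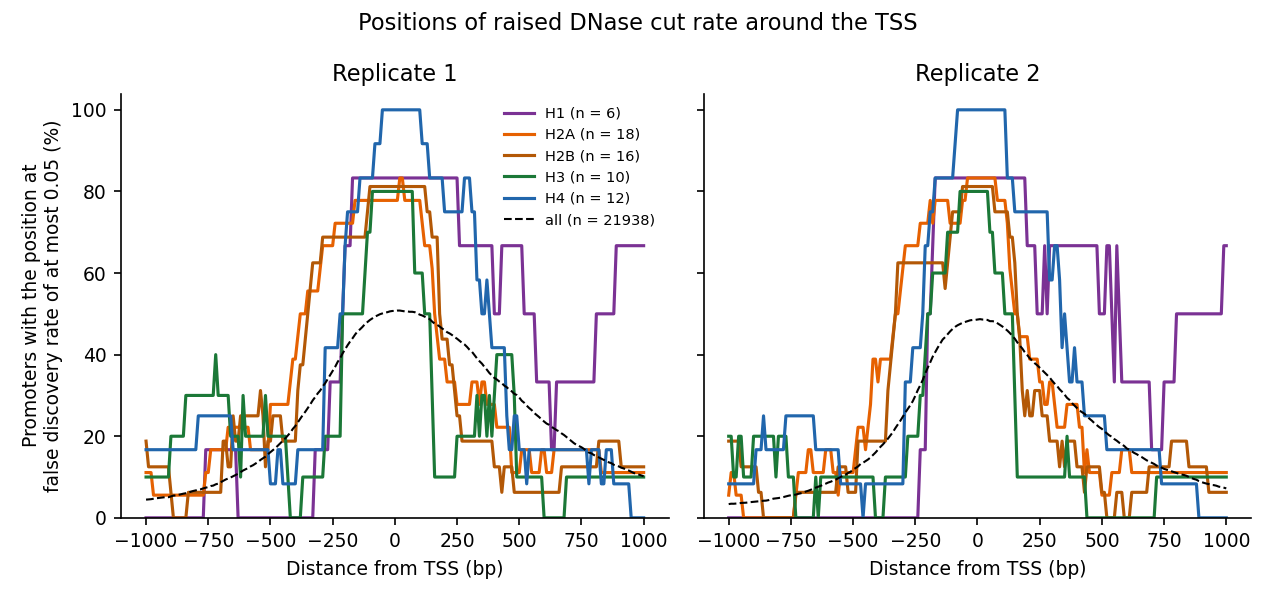
Share of promoters (y axis, %) with a false discovery rate of the cut rate of at most 0.05 at each distance from the TSS (x axis, bp, with the gene to the right), in replicate 1 and replicate 2. Coloured lines are histone types at their RefSeq TSS and the dashed line is all protein-coding genes at their annotated 5′ end. H4 reaches 100% at the TSS in both libraries, and H2A and H2B are wider upstream than H3 and H4. At 250 bp downstream H4 lies above H2A, H2B and H3.

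The members without a peak fell into 2 kinds. Hist1h2bq, Hist1h2ao, Hist1h2ap and Hist1h2br form divergent pairs in which 100% of the 36-base windows, within 1 kb of the TSS as well as in the 300 bases around it, occur again in the genome. Hist2h3c1, with 86.4% in those 300 bases, also had no peak. Hist2h3c2, likewise at 86.4%, had a peak of 0.616 in replicate 1 and none in replicate 2. The other kind had few repeated windows: Hist1h1d and the testis genes Hist1h1t, Hist1h2ba and Hist1h2aa, each at 0% in the 300 bases around the annotated TSS. For Hist1h1d the missing peak holds for the annotated TSS alone, since its RefSeq TSS had a peak in both libraries. Hist1h2ba and Hist1h2aa encode H2B and H2A variants known from male germ cells. None of these 9 genes without a peak had a listed position within 1 kb of the annotated TSS in either library.

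Repeated sequence and missing peaks moved together. Of 10 histone genes with over 50% of promoter windows repeated, 4 had a peak in both libraries, against 53 of the 57 others (93%). Over all protein-coding genes, 9.94% of 1519 genes above that mark and 65.3% of the 20419 others had one. How reads that match several places were treated is not given in the sources used here, and the part of repeated sequence in the missing peaks was not tested.

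**Figure D3:**
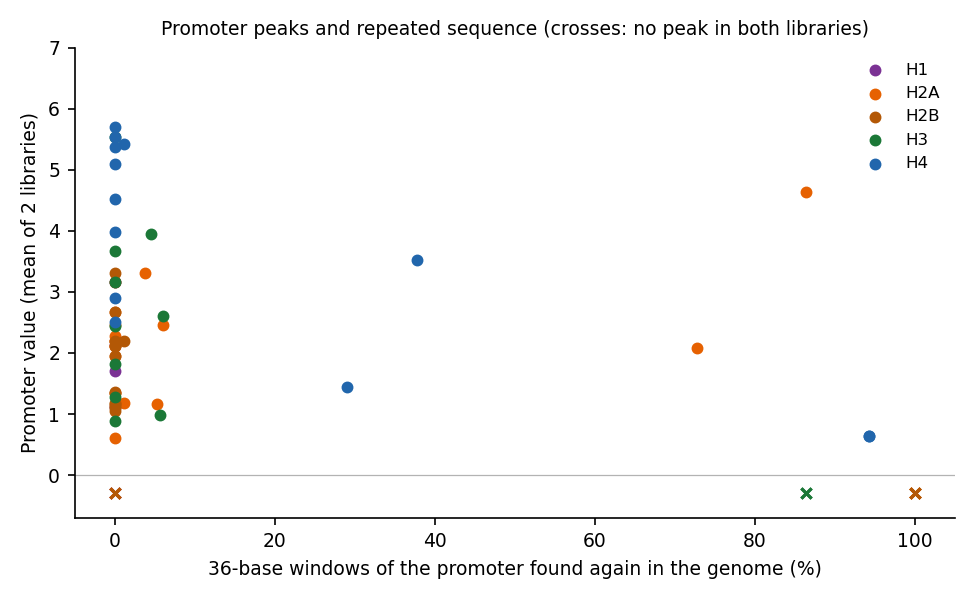
Promoter value (authors' signal, mean of the 2 libraries, y axis) of each histone gene against the share of 36-base windows in the 300 bases around its TSS that occur again in the genome (x axis, %). Crosses below 0 are genes without a peak in both libraries. At 100% there are only crosses (4 genes), and Hist1h4m and Hist1h4n lie at 94.3% with values under 0.7.

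Nearly every one of these peaks held a footprint. The strongest peak held at least 1 footprint at 57 of 57 histone genes in replicate 1 and 55 of 57 in replicate 2, against 98.4% and 97.8% of all genes. Per 100 bp of peak there were 1.48 footprints in replicate 1 and 1.53 in replicate 2, against 1.65 in each library over all genes. For each type, the distance within 200 bp of the RefSeq TSS most often inside a footprint was picked from these same data. A share picked this way from few promoters is high in part by the choice. For H4 it was 35 to 34 bp before the TSS, where 9 of 12 promoters (75%) were inside a footprint in both libraries. Over 12386 protein-coding promoters with a peak in both libraries, 14.6% were at that distance, and the highest share at any distance within 200 bp was 16.5%. These 9 were Hist1h4a, Hist1h4c, Hist1h4d, Hist1h4f, Hist1h4h, Hist1h4i, Hist1h4k, Hist1h4m and Hist4h4.

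The footprint of Hist1h4c ran from 66 to 20 bp before the TSS in replicate 1 and from 48 to 18 bp before it in replicate 2, and that of Hist1h4d from 47 to 20 bp and from 47 to 17 bp. That of Hist1h4i ran from 53 to 21 bp before the TSS in replicate 1 and from 54 to 15 bp in replicate 2. At Hist1h4j and Hist1h4b no footprint covered the position in either library, and at Hist1h4n 1 did in replicate 2 alone. The position depends on the TSS used. At Hist1h4j and Hist1h4b the RefSeq TSS lies upstream of the annotated one, but so it does at Hist1h4k and Hist1h4d, which had the footprint. The reason for the missing footprints was not tested. The H4 core began 18 bp before the RefSeq TSS at Hist1h4j. At Hist1h4b it began 6 bp after that TSS and lay inside a footprint of both libraries. At the distances picked for the other types, the count was 3 of 4 for H1 (75%), at 15 to 12 bp before the TSS. It was 4 of 15 for H2A, 4 of 13 for H2B and 2 of 8 for H3.

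**Figure D4:**
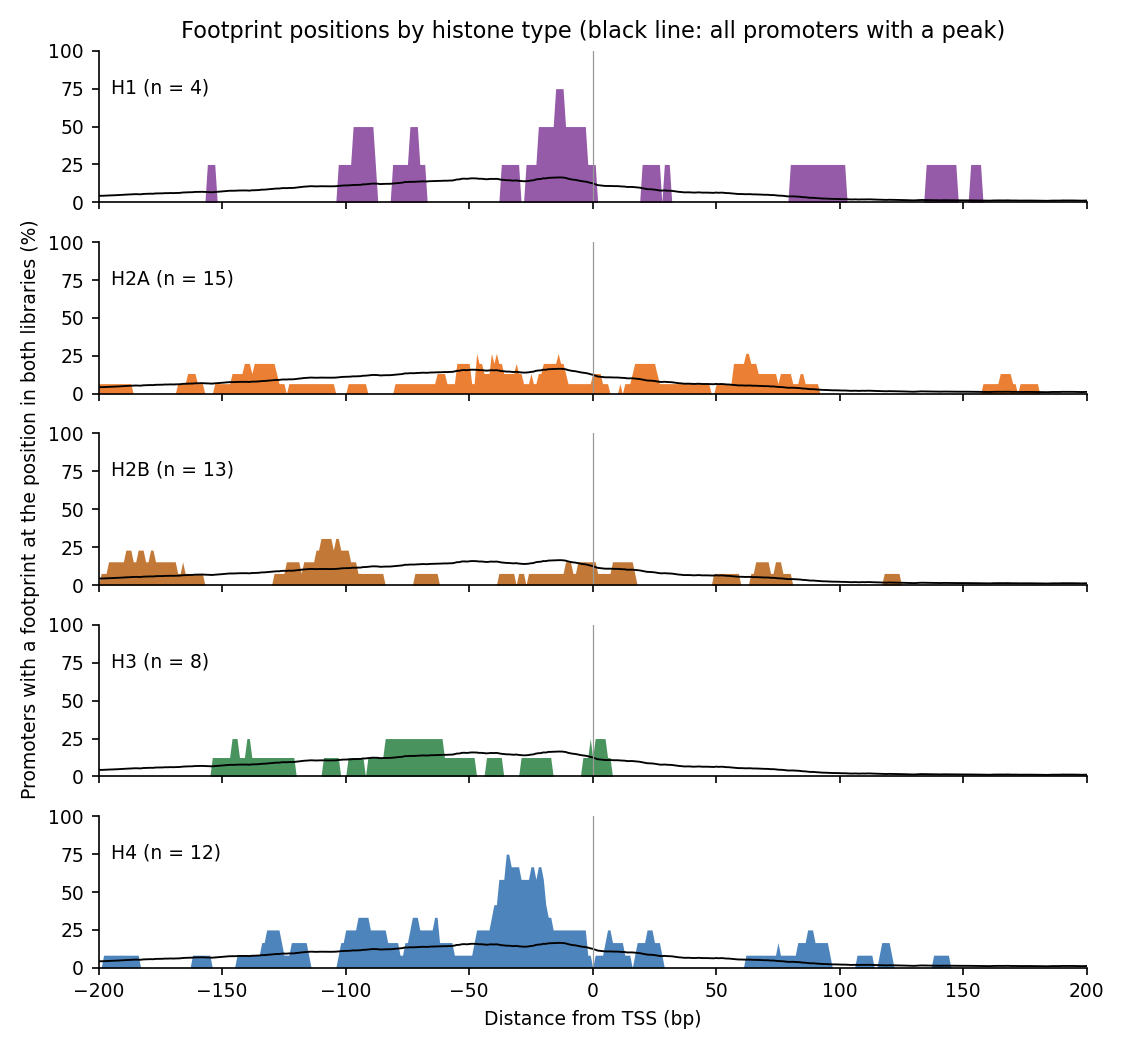
Share of promoters (y axis, %) inside a footprint of both libraries at each distance from the RefSeq TSS (x axis, bp), 1 panel per histone type, for members whose promoter had a peak in each library. The black line is all protein-coding promoters with a peak in both libraries. H4 is highest, at 75%, 35 bp before the TSS, a place picked from these data, where the black line is at 14.6%.

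The histone types differed in the elements their promoters held. In promoters of 300 bases, from 250 before to 50 after the TSS, 62 of the 67 genes were found in the RefSeq table. The H4 core GGTCCG was in 11 of 12 H4 promoters (91.7%), in 1 H2B and 1 H3 promoter and in no H1 or H2A promoter, against 10.5% of 21262 protein-coding promoters. Its first base lay between 47 bp before and 6 bp after the TSS in H4 promoters. Hist1h4a, among the strongest, was the H4 gene without it. The H1 box AAACACA, an element known from H1 promoters, was in 5 of 6 H1 promoters, with its first base 112 to 122 bp before the TSS, against 6.15% of all promoters. These include Hist1h1t, which had no peak. The H1 box was also in 2 of 18 H2A and 2 of 16 H2B promoters, so it was not confined to H1.

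The octamer ATTTGCAT, to which the factor encoded by Pou2f1 is known to bind, was in 7 of 18 H2A and 7 of 16 H2B promoters and in none of the other types, against 1.66% of all promoters. The CCAAT box, bound by the NF-Y complex, was in all H1, H2A, H2B and H3 promoters of the table and in 3 of 12 H4 promoters (25%), against 38.2% of all promoters. The TATA box TATAAA was in 35 of 62 histone promoters (56.5%), against 12.6%. The E2F letters TTTCGCGC were in 5 H2A and 4 H2B promoters (14.5% of 62), against 0.452%, while TTTGGCGC was in none, against 0.635%. GGGCGG, the box of SP and KLF factors, was in 9 of 12 H4 promoters (75%) and 38.7% of all 62, against 46.2%. From 500 bases before to 100 after the TSS the order turned, with 67.7% of the 62 against 52.6%. TGACGTCA, the CRE of CREB factors, was in 4 histone promoters (6.45%), against 2.23%. A match of letters is not a sign that the factor was bound.

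Some of these elements lay under footprints and others did not. Taking each match in a peak of both libraries once, 4 of 4 E2F matches in histone promoters overlapped a footprint of both libraries by at least 1 base, against 50.9% over all promoters. None of the 4 lay wholly inside a footprint in both libraries, against 16.4%. They stand at Hist1h2ah, Hist1h2ag, Hist1h2af and the pair Hist1h2bf and Hist1h2ad, and the fifth, at Hist1h2an, was not in a peak of both libraries. CRE matches overlapped footprints of both at 3 of 3, against 78.7%, and 2 of the 3 lay wholly inside, against 53.7%. H4 cores overlapped at 6 of 11 (54.5%), against 22.3%, and the same 6 lay wholly inside, against 8.08%. The 6 were those of Hist1h4b, Hist1h4c, Hist1h4d, Hist1h4i, Hist1h4k and Hist4h4. GGGCGG overlapped at 11 of 19 (57.9%), against 48.2%, and lay wholly inside at 5 (26.3%), against 29.9%.

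TATA boxes overlapped footprints of both libraries at 4 of 17 (23.5%), against 22.4%, and lay wholly inside at 2 (11.8%), against 7.32%. CCAAT boxes overlapped at 11 of 65 (16.9%), against 19.1%, and lay wholly inside at 3 (4.62%), against 7.87%. The octamer overlapped one in none of 7, against 4.04%, and the H1 box in none of 2, against 13.8%. The counts are small and the matches of paired genes are the same DNA.

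The clusters differed in what lay between their genes. In both libraries a promoter peak was found at 19 of 23 genes of the first block of Hist1 and at 27 of 31 of the second, with median values of 1.96 and 2.19. It was found at 8 of 10 genes of Hist2 with a median of 2.63, and at both genes of Hist3, Hist3h2a with 1.88 and 2.66 in replicates 1 and 2 and Hist3h2ba with 1.28 and 1.43. The window around a TSS of the neighbouring gene Trim17 also held the peak of Hist3h2a in both libraries. Between the genes, outside the 1 kb around each member's TSS, the first block held 33 peaks in replicate 1 and 29 in replicate 2, counted by their centre. That was 11.3 and 9.94 per 100 kb, against 3.23 and 3.32 over all chromosomes. Apart from the peaks near Hist1h1b, all lay between the end of Hist1h2br (chr13:21837530) and the start of Hist1h2ah (chr13:22035164). That stretch falls just short of the 200 kb gap that divides a cluster here, so the density of the first block rests on that setting. The second block held 6 and 9 peaks, or 1.98 and 2.97 per 100 kb, and Hist2 held none and 1. Without peaks of which any base lay in a member gene or its window, the first block held 32 and 28, the second 6 and 8 and Hist2 none and 1.

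The peaks between genes of the first block lay mainly over tRNA genes, a class looked at after the values were seen. RefSeq places 31 tRNA genes in its span and none in the spans of the second block, Hist2, Hist3 or Hist4. They covered 23 of the 33 peaks in replicate 1 and 20 of the 29 in replicate 2. A peak of both libraries lay over 20 of the 31 tRNA genes (64.5%), against 55.6% of all 403 tRNA genes of the genome, and 18 of the 31 held a footprint in both libraries. Their median value was 1.33 in replicate 1 and 0.819 in replicate 2, against 2.87 and 2.20 at the other tRNA genes. The strongest, at n-TItat14, had 3.76 and 3.23 in replicates 1 and 2. A further strong peak, with 3.73 and 3.60, lay inside the noncoding gene Gm11292, and the promoter of the zinc finger gene Zfp184 had 2.57 and 2.87.

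**Figure D5:**
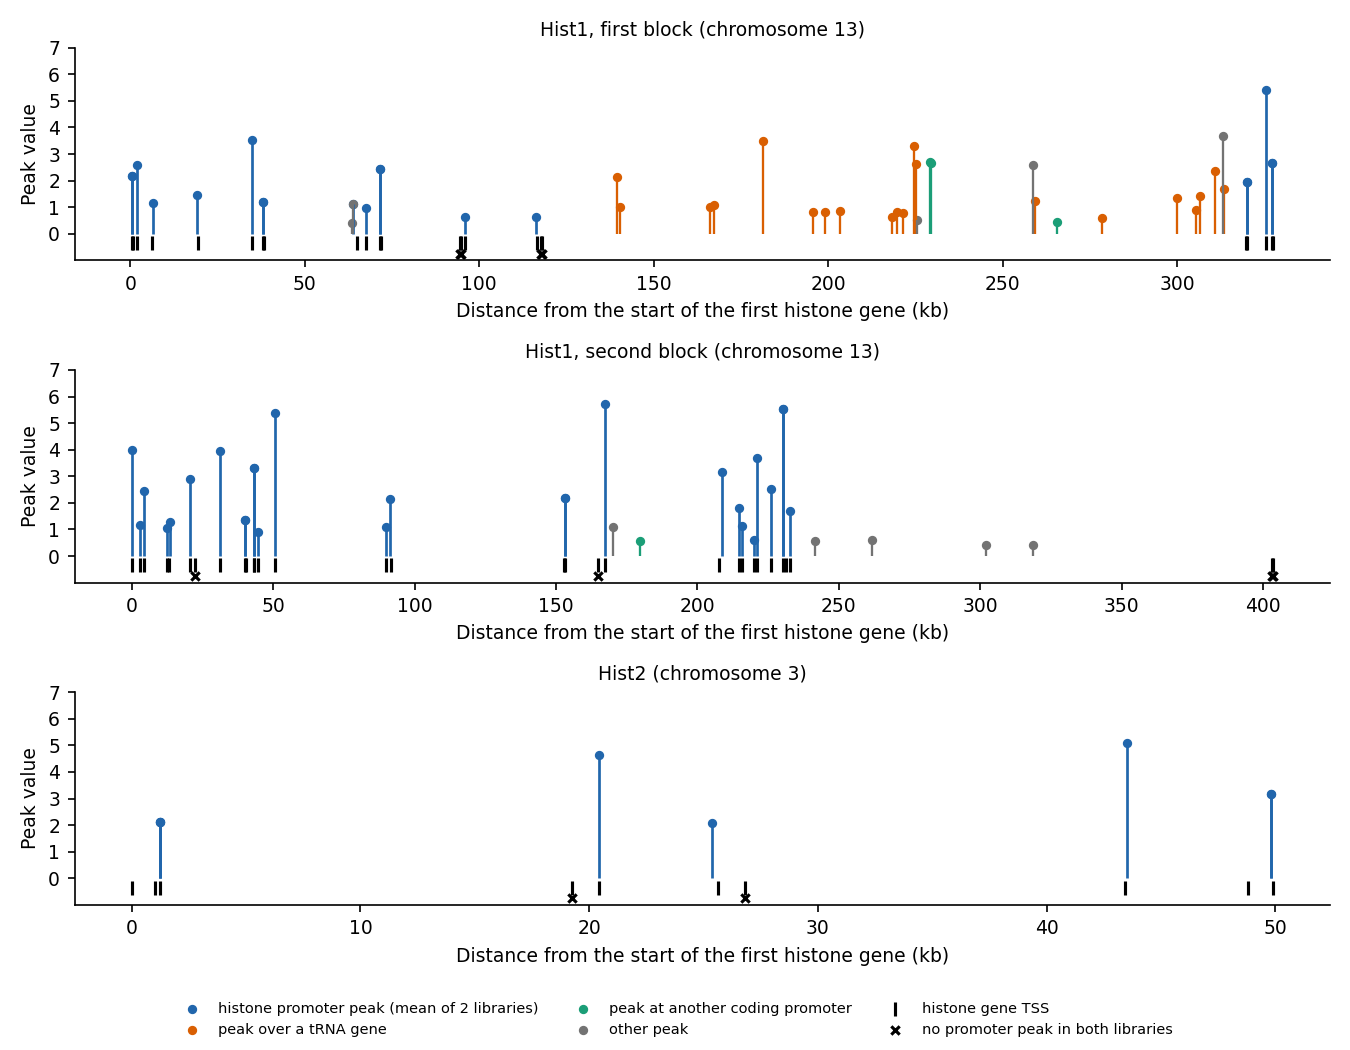
Peak value (authors' signal, mean of the 2 libraries, y axis) along both blocks of Hist1 and along Hist2 against the distance from the start of the first histone gene (x axis, kb). Blue stems are strongest promoter peaks of histone genes, and orange, green and grey stems are peaks of replicate 1 between them that overlap a peak of replicate 2. Ticks mark histone TSS and crosses mark genes without a peak in both libraries. Orange stems over tRNA genes fill a stretch of the first block that holds no histone gene.

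The genes that supply, process and carry histones were open. A promoter peak in both libraries was found at 13 of 13 genes of transcription factors and coactivators of histone genes, with a median value of 4.55, where 61.5% of all protein-coding genes had one. Among them Npat, the coactivator of histone transcription, had 5.31 and 8.09 in replicates 1 and 2, Nfya 5.68 and 7.11, Casp8ap2 4.55 and 7.53 and Hinfp 4.24 and 5.94. All 12 genes of histone mRNA 3′ end processing had one (median 3.02), with 3.23 and 3.73 at Slbp, whose product binds the stem-loop. All 13 histone chaperones (median 3.33) and all 17 DNA replication genes (median 3.50) had one too. The medians of these lists lay above the 2.34 of all protein-coding genes with a promoter peak.

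Replication-independent variants had a peak in both libraries at 11 of the 12 genes matched of 13, with a median value of 3.08, against 2.19 for the clustered histone genes. H3f3a had 2.82 and 3.35 in replicates 1 and 2, H3f3b had 3.53 and 4.86, H2afz had 4.61 and 5.09 and H2afx had 4.93 and 6.45. H1f0, the replacement linker histone, had 3.18 and 2.84. H2afb1, a variant known from testis, had no peak in either library. The difference between the medians has no test here, since the genes are not replicates of a condition.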

How the data were processed

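DNase-seq was measured in 2 libraries of 1 group. Per the deposited text files, the authors called peaks and footprints in each library separately on mm10. The deposited signal per peak is normalized to read depth on an unstated scale. The authors also deposited q-values (false discovery rate) of the cut rate, listed up to 0.05. The footprint lists deposited carry 1 constant, 0.01. Aligner, callers, read length and depth were not given in the sources used here, so the precision that depth gives is unknown.

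The longer of the 2 peak lists of each library was used, and the shorter as an alternative. Genes came from GENCODE vM21 and promoter sequences from RefSeq, both on GRCm38.p6 (62 of 67 members matched by synonym and position). A gene's value was that of its strongest peak overlapping the 1 kb on either side of any annotated TSS by at least 1 bp, so neighbours can share a peak. Scans used Python 3.11.15, pandas 2.3.3, numpy 2.4.6 and numba 0.67.0, with figures in matplotlib 3.10.9, and were tested on simulated data.

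Named genes were, per histone type, up to 4 with the largest mean value, up to 4 without a peak and those with a peak in 1 library, besides the members of Hist2, Hist3 and Hist4, the testis members and up to 3 with the widest difference between libraries, and per list up to 4 with the largest value, up to 3 without a peak and those in 1 library. Others were named after their values were seen. The members, lists and motifs were chosen with earlier results of these data known.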

Additional observations from a re-analysis of the deposited data

How the results depend on the processing

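Of the alternative values, 153 of 174 stayed within the spread between libraries or within 1.5 times the count. Histone genes with a peak in both libraries numbered 51 on the shorter peak list (background 55.6%), 57 within 500 bp (59.8%), 64 within 2.5 kb (64.5%) and 49 with each peak given to the nearest TSS alone (57.2%). The median value over the histone genes moved to 2.45 within 2.5 kb and to 1.83 with the nearest TSS alone, and ran between 2.09 and 2.44 with 1 library left out. The H4 median moved to 4.25 on the shorter list and to 4.52 with the stronger 50% of peaks, and was 4.02 to 4.05 with 1 library left out. On the shorter list Hist3 kept 1 gene, the peaks between genes fell to 7.20 per 100 kb in the first block of Hist1 and to 0.989 in the second, microglia, endothelial and meningeal markers had 1 gene each with a peak, and testis and oocyte linker histones had 0. Neuron markers had a peak in both libraries at 7 of 10 genes on that list and proliferation markers at 8 of 9. Without the split, Hist1 held 4.76 peaks per 100 kb between genes. SP/KLF boxes were in 42 of 62 promoters (67.7%) from 500 bases before to 100 after the TSS, against 52.6% of all. For these values the cause was not tested. RefSeq TSS, chosen after seeing the data, gave a peak in both libraries at 53 of 62 members. Of 21262 protein-coding promoters of RefSeq, 12386 had a peak within 1 kb in both libraries. The counts of matches wholly inside footprints and of peaks clear of member genes and windows were also chosen after seeing the data. No paired analysis was possible because there was 1 group and no contrast. Depth is unknown, and 2 libraries limit the precision.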
